A study of Sus scrofa with 4 samples.

Results

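GATA6, APOA1 and DAB2 are genes used to follow the primitive endoderm, and their transcripts were measured in porcine (Sus scrofa) blastocysts. The embryos came either from control oocytes or from oocytes that had met high non-esterified fatty acids (NEFAs), the form in which fat circulates when it is mobilised. The members were all probes that the platform annotation names GATA6, APOA1 or DAB2, which gave 5 probes of 3 genes, out of 13146 probes with a symbol for 10024 genes. GATA6 (gene ID 397600) had the probe EMPV1_30525 and APOA1 (gene ID 397691) the probe EMPV1_21598. DAB2 (gene ID 100519746) had 3 probes, EMPV1_23615, EMPV1_39270 and EMPV1_18802. Each of 4 arrays carried RNA of NEFA blastocysts in 1 channel and of control blastocysts in the other, with NEFA in Cy3 on arrays 1 and 2 and in Cy5 on arrays 3 and 4. The design text gives 4 pools of 10 blastocysts, from days 7 and 8, and does not say whether each pool mixed the days. The labels name neither the fatty acids nor their concentration, nor a breed, and all pools were whole blastocysts.

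The primitive endoderm, or hypoblast, is the cell layer that separates from the epiblast within the inner cell mass and lines the blastocyst cavity, and it later forms the yolk sac endoderm. In the mouse, fibroblast growth factor signalling pushes inner cell mass cells toward this fate, and the zinc finger transcription factor GATA6 is required for it. DAB2 is an endocytic adaptor that links lipoprotein receptors to clathrin and is needed for an ordered endoderm layer in the mouse, but it is also known from trophoblast, so it does not mark the endoderm alone. APOA1 is the main protein of high density lipoprotein, and visceral endoderm and yolk sac make it together with other apolipoproteins. A whole blastocyst holds few cells of this layer beside many of trophectoderm, and in such pools fewer cells of a type and less RNA per cell cannot be told apart.

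The arrays had 43794 probes, of which 38.3% to 49.0% exceeded, in a given channel, the limit set by 153 negative control spots (their mean plus 2 SD). A probe was tested when 3 or 4 pools of the same condition exceeded that limit, as held for 17145 probes. Across all of these the ratios of NEFA over control did not repeat well from array to array: they correlated at r = -0.54 between arrays 2 and 4 and at r = 0.16 between arrays 3 and 4. Exchanging the labelled dye orientations of arrays 2 and 3 turned a count of 0 probes past an adjusted p of 0.05 into 1193, so values with those orientations exchanged stand beside the members' results. Values are log2 ratios of NEFA over control ± SE from limma with a dye term over n = 4 arrays, except where an SD is given, and so few arrays limit the precision. Nothing in the labels says that the pools came from separate cultures, and the p-values therefore cover the array-to-array spread alone, which may be technical.

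GATA6 was plainly present in blastocysts of both conditions and did not differ detectably between them. Its raw median spot intensity on arrays 1 to 4 was 4369, 6495, 4094 and 3621 in the NEFA pools. In the control pools it was 6237, 4499, 3835 and 3120. The ranges of the conditions overlapped almost wholly, with the highest NEFA value on array 2 and the highest control value on array 1. After background correction the probe stood 12.2 to 25.1 times above the negative control limit, and it exceeded the limit in 8 of 8 channels, as 25.0% of all probes did. The log2 ratio was -0.57 on array 1, 0.23 on array 2, 0.29 on array 3 and 0.47 on array 4, so NEFA was lower on 1 array and higher on the other 3. The limma value was 0.10 ± 0.18 (95% interval -0.34 to 0.55, n = 4 arrays), with an adjusted p of 1.00 after rounding. As a fold, that interval runs from 0.789 to 1.46 times control. Leaving out array 2 gave -0.09, and exchanging the dyes of arrays 2 and 3 gave -0.16.

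**Figure D1:**
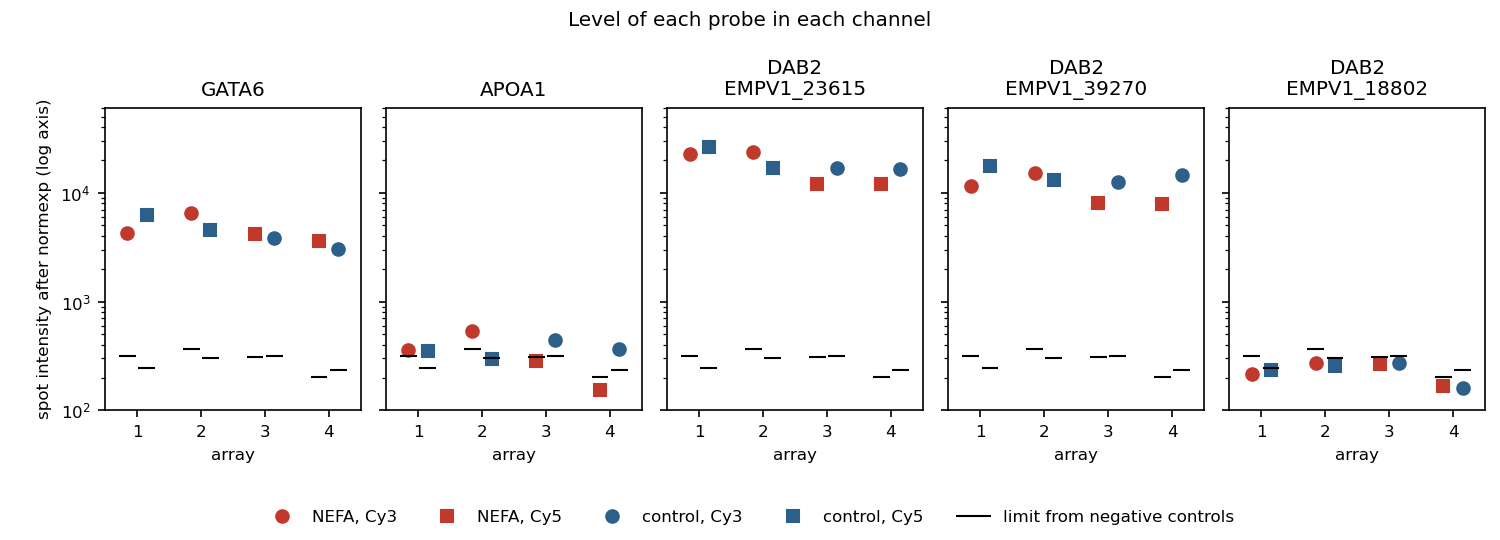
Spot intensity after normexp background correction (log axis) of the 5 probes on arrays 1 to 4, red for NEFA and blue for control, circles for Cy3 and squares for Cy5; black lines mark the mean plus 2 SD of 153 negative control spots of that array and channel. GATA6 and the first pair of DAB2 probes lie above the lines in 8 of 8 channels, APOA1 in 5 of 8 and DAB2 probe EMPV1_18802 in 0 of 8.

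APOA1 was measured close to the background, and its ratio did not pass the test. Its raw intensity in the NEFA pools was 473, 537, 219 and 198 on arrays 1 to 4. In the control pools it was 378, 293, 430 and 430. The NEFA pools were above the limit on arrays 1 and 2 and the control pools on arrays 1, 3 and 4, which makes 2 of 4 against 3 of 4, and the probe was therefore tested through its control pools alone. These counts moved with the dye: APOA1 exceeded the limit in 4 of 4 Cy3 channels and in 1 of 4 Cy5 channels. The highest of the 8 values was 1.54 times the limit and the lowest 0.774 times.

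On a normalised log2 scale the APOA1 level was 8.21 ± 0.36 (SD, n = 4) in NEFA and 8.53 ± 0.24 (SD, n = 4) in control. The ratio was -0.37 on array 1, 0.51 on array 2, -0.53 on array 3 and -0.88 on array 4, lower in NEFA on 3 of 4 arrays. The limma value was -0.32 ± 0.19 (95% interval -0.80 to 0.16), or 0.802-fold of control, with an adjusted p of 1.00 after rounding. Array 2 alone held the opposite sign, and the value was -0.54 without it and -0.10 without array 1. Exchanging the dyes of arrays 2 and 3 gave -0.31, and exchanging those of arrays 1 and 4 gave 0.31.

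DAB2 was read by 3 probes that gave different pictures. EMPV1_23615 and EMPV1_39270 were far above background in every pool, whereas EMPV1_18802 was not above it in any. Intensities of different probes cannot be compared as amounts of transcript, so this contrast says only which probes gave a signal. The annotation does not say which part of the transcript each probe targets.

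For EMPV1_23615 the raw intensity was 23068, 23795, 11956 and 12194 in the NEFA pools of arrays 1 to 4. In the control pools it was 26337, 16891, 17002 and 16737. NEFA was thus the brighter channel on array 2 alone, and the NEFA values themselves fell into a high pair on the arrays where NEFA carried Cy3 and a low pair where it carried Cy5. The log2 ratio on arrays 1 to 4 was -0.09, 0.34, -0.42 and -0.37, and the limma value was -0.14 ± 0.15 (95% interval -0.50 to 0.23, adjusted p = 1.00 after rounding). It was -0.25 without array 2 and -0.03 without array 1. Exchanging the dyes of arrays 2 and 3 gave -0.10 (limma adjusted p = 0.81), and exchanging those of arrays 1 and 4 turned the value to 0.10.

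EMPV1_39270 had the lowest NEFA over control value of the 5 probes. Its raw intensity was 11650, 15083, 7989 and 8004 in the NEFA pools of arrays 1 to 4. In the control pools it was 17515, 13046, 12533 and 14618. After normalisation the NEFA levels were 13.27, 13.64, 13.20 and 13.23 on the log2 scale, and the control levels 13.81, 13.62, 13.73 and 13.99. The NEFA pool of array 2 overlapped the control pools and the other 3 NEFA pools lay below all of them. The ratio was -0.54, 0.01, -0.53 and -0.76, lower on 3 of 4 arrays and close to 0 on array 2.

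The limma value of EMPV1_39270 was -0.45 ± 0.16 (95% interval -0.85 to -0.06), which is 0.730-fold of control. Its unadjusted limma p was 0.0315, and its adjusted p over the 17145 probes was 1.00 after rounding. By limma, 263 probes, or 1.53% of those tested, had an unadjusted p under 0.05, and 0 (0%) had an adjusted p under 0.05, so the probe did not pass. On the lower side alone the unadjusted threshold took in 161 probes, or 0.939%. Exchanging the dyes of arrays 2 and 3 gave -0.20 (limma adjusted p = 0.69), and exchanging those of arrays 1 and 4 gave 0.20.

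The bright DAB2 probes shared their signs on 4 of 4 arrays and differed in size, but EMPV1_39270 was at only 0.01 on array 2. The ratio of EMPV1_39270 was below that of EMPV1_23615 on 4 of 4 arrays, by 0.32 ± 0.15 on the log2 scale (SD, n = 4). A two-sided exact permutation test of the signs gave p = 0.125, the smallest that 4 arrays allow. The dim probe EMPV1_18802 had raw intensities of 206 to 349 in NEFA and 235 to 277 in control, at 0.671 to 0.952 times the limit. It was not tested, and its ratio of -0.07, from -0.49 on array 1 to 0.54 on array 4, has no bearing on the DAB2 level.

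**Figure D2:**
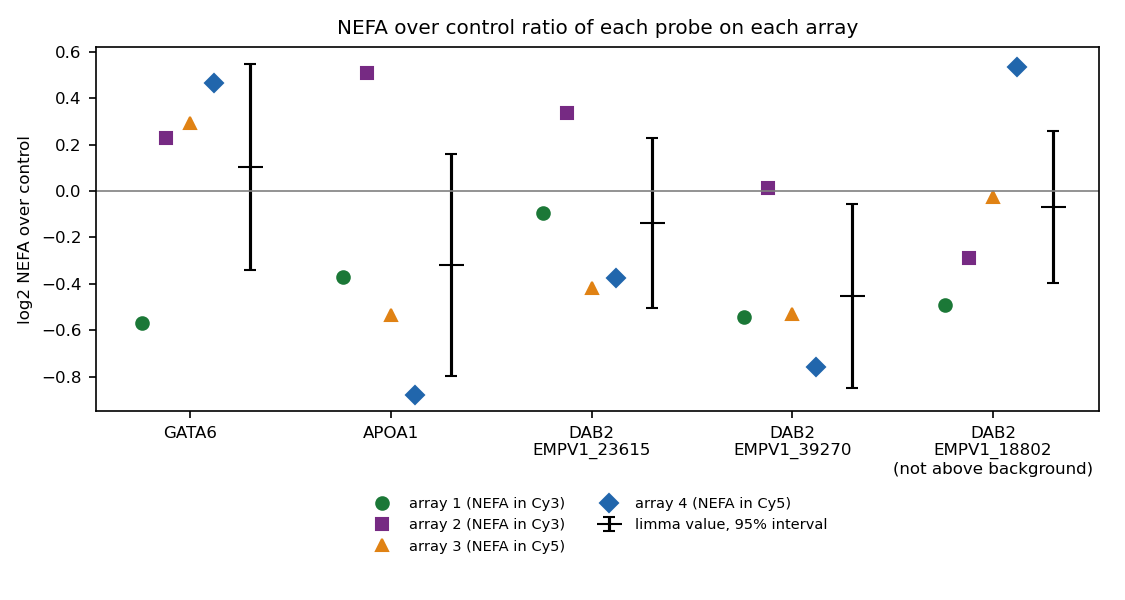
Log2 ratio of NEFA over control for the 5 probes on each of the 4 arrays (coloured symbols) with the limma value and its 95% interval (black, n = 4 arrays). The GATA6 points run from -0.57 to 0.47, array 2 is the highest point for APOA1 and for DAB2 probes EMPV1_23615 and EMPV1_39270, and the interval of EMPV1_39270, from -0.85 to -0.06, is the only 1 of the 5 that does not reach 0.

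The array-to-array pattern of APOA1 was closer to that of the bright DAB2 probes than to that of GATA6. APOA1 and both bright DAB2 probes were higher in NEFA on array 2 and lower on arrays 1, 3 and 4. That pattern was shared by 9.71% of tested probes with 4 values. For EMPV1_39270 the array 2 value was 0.01, so its sign there carries little weight. GATA6 was lower on array 1 and higher on the other arrays, as were 7.56% of those probes. The root mean square difference of the 4 ratios was 0.31 between APOA1 and EMPV1_23615, 0.27 between APOA1 and EMPV1_39270, and 0.34 between the 2 DAB2 probes. It was 0.81 between GATA6 and APOA1 and 0.60 between GATA6 and EMPV1_23615. It was also 0.31 between GATA6 and EMPV1_18802, a probe with no signal above background, so a difference of this size carries little weight. These are descriptions over 4 arrays on which all probes share the same RNA, dye and normalisation. Ratios of single arrays also keep each probe's dye preference, which the dye term takes up in the limma value. That term, as log2 Cy5 over Cy3, was -0.39 for APOA1, -0.26 for EMPV1_23615 and -0.19 for EMPV1_39270. It was 0.28 for GATA6 and 0.32 for EMPV1_18802. The part of dye preference in the likeness of these patterns was not tested.

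Genes with the nearest patterns were sought among the other 4685 measured genes with a symbol. For GATA6 they were CCDC93, MAGI3 and PSMA1, with root mean square differences of 0.04, 0.04 and 0.05 against a median of 0.52 over all genes. For APOA1 they were RAB24, GPATCH3 and PPP2CA at 0.10, 0.11 and 0.12, against a median of 0.66. For DAB2, read by EMPV1_23615, they were PBK, PCCA and TMPRSS2 at 0.03, 0.05 and 0.05, against a median of 0.46. These genes also had dye terms like those of the members. The terms were 0.26 to 0.29 for the GATA6 matches, -0.30 to -0.28 for those of APOA1 and -0.29 to -0.22 for those of DAB2. A match in these ratios is therefore not a shared response to NEFA alone. With 4 values a gene and this many genes, near matches arise whatever the roles of the genes.

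Few other regulators of the primitive endoderm could be followed. Of 11 listed transcription factors 6 had a named probe, and GATA6 was the only 1 of these above background often enough to be tested. HNF4A, a nuclear receptor of the visceral endoderm, exceeded the limit in 3 of 8 channels, FOXA2 in 1 of 8, and FOXA1, SALL4 and EOMES in 0 of 8. SOX17, GATA4, SOX7 and KLF5 had no probe under these symbols among those used here.

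Signalling genes upstream of the lineage choice had values on both sides of 0. Of 24 listed genes of fibroblast growth factor (FGF) and platelet-derived growth factor signalling, 16 had a probe and 8 were measured, 3 above and 5 below 0, and 0 of 8 passed in limma. Their median was -0.13, against -0.01 for all 4686 measured genes, of which 46.1% were above 0. FGF2, a ligand, was at 0.18 ± 0.14, and the kinase BRAF and the GTPase NRAS of the pathway that FGF receptors activate were at -0.20 ± 0.16 and -0.15 ± 0.14. PDGFRA, a receptor that marks mouse primitive endoderm, was above background in 3 of 4 NEFA and 4 of 4 control pools and had a value of 0.02 ± 0.14. FGFR2 was at -0.11 ± 0.15 and was tested through its control pools alone, being above background in 2 of 4 NEFA and 3 of 4 control pools. FGF4 exceeded the limit in 2 of 8 channels and was not tested.

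Components of the basement membrane, which endoderm cells lay down, likewise did not pass. Of 18 listed genes 8 were measured, 5 above and 3 below 0, with a median of 0.08 and 0 past the limma threshold. ITGB1, the integrin chain that binds laminin and collagen, had a value of 0.32 ± 0.15 and was higher on 4 of 4 arrays, as 3.56% of probes were. NID2, which bridges laminin and collagen IV, was at -0.21 ± 0.13, and LAMC1, a laminin chain, was at 0.13 ± 0.13 and also higher on 4 of 4 arrays. COL4A1 had a value of 0.08 ± 0.24, with -0.65 on array 4 and 0.63 on array 3, and 1 of its 2 probes had the opposite sign.

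The endocytic partners of DAB2 had values on both sides of 0, and none passed the adjusted test. Of 31 listed genes, DAB2 included, 18 had a probe and 13 were measured, 5 above and 8 below 0. Their median was -0.07, with single values from -0.37 to 0.27. DAB2 entered through EMPV1_23615. The other tested DAB2 probe, EMPV1_39270, was at -0.45 with an unadjusted limma p of 0.0315. It lay outside that range and is not in these counts. The summed normalised intensity of the 13 genes was 114563 to 136997 in NEFA pools. In control pools it was 135983 to 146049, so the ranges met only at their edge. That sum includes DAB2 and rests mostly on the brightest genes, CLTA alone holding 20.9% to 31.2% of it, and its difference was not tested. Of the 13 genes, 0 passed the adjusted threshold in limma. Beside 67 (1.43%) of all 4686 measured genes, 1 of the 13 had an unadjusted limma p under 0.05. That gene was CLTA, a clathrin light chain, at -0.37 ± 0.14 and lower on 4 of 4 arrays, as 4.29% of probes were, but 1 of its 2 probes had the opposite sign. PICALM, a clathrin assembly protein, was at 0.21 ± 0.14 and SMAD2, a signal transducer that DAB2 binds, at -0.22 ± 0.15. AMN, which forms the endoderm receptor for vitamin B12 with cubilin, was above background in 3 of 4 NEFA and 2 of 4 control pools and had a value of 0.05 ± 0.14. LRP2 and CUBN, the large receptors that DAB2 serves in the visceral endoderm, had no probe under these symbols among those used here.

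Lipoprotein genes around APOA1 were divided evenly. Of 30 listed genes 24 had a probe and 12 were measured, 6 above and 6 below 0, with a median of 0.04 and 0 past the limma threshold. ABCA1, the transporter that loads APOA1 with cholesterol, was at -0.27 ± 0.14, from -0.69 on array 1 to 0.00 on array 3. NR1H3, a nuclear receptor that drives ABCA1, was at 0.27 ± 0.15, with 1 of its 2 tested probes on the other side of 0. RBP4, a retinol carrier of the yolk sac, was above background in 3 of 4 pools of each condition, at -0.02 ± 0.14. Among other secreted products of visceral endoderm, AFP exceeded the limit in 1 of 8 channels and TF in 0 of 8, so neither was tested. The 12 measured of the 24 genes with a probe did include secreted apolipoproteins above background. APOA2 and APOH exceeded the limit in 8 of 8 channels and APOC3 in 7 of 8. Further listed apolipoproteins were not tested. APOC2 exceeded the limit in 0 of 8 channels, APOA4 in 2 of 8, APOA5 in 3 of 8, APOM in 4 of 8 and APOD in at most 4 of 8.

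**Figure D3:**
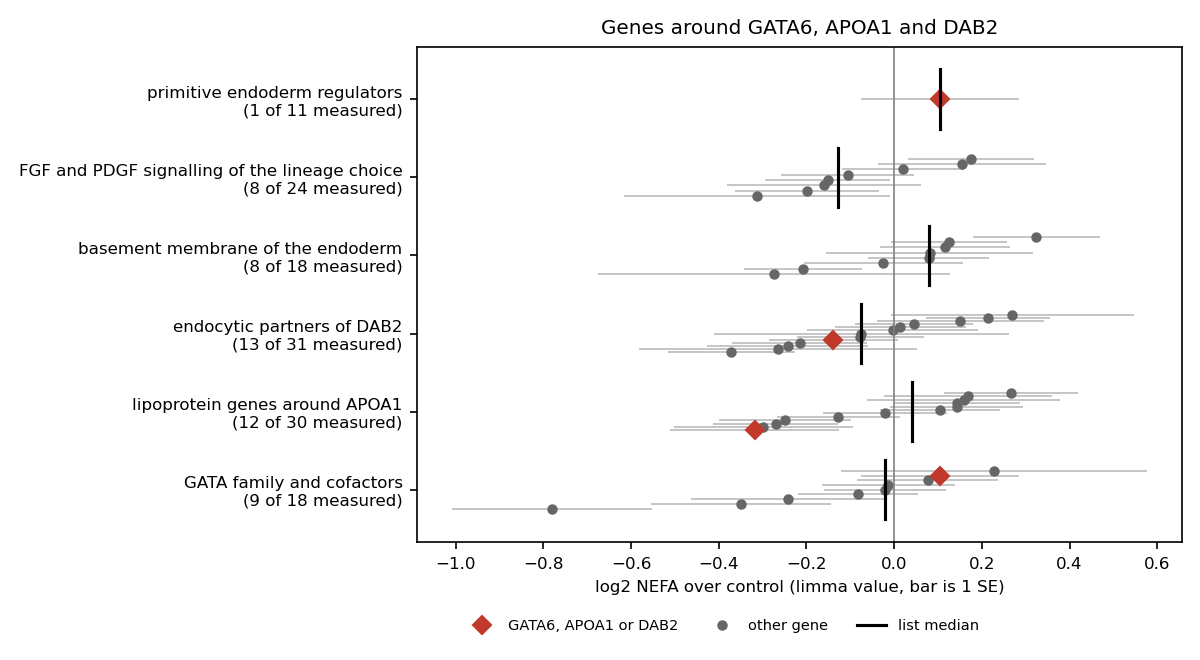
Limma value of log2 NEFA over control with a bar of 1 SE for each measured gene of 6 lists around GATA6, APOA1 and DAB2 (red diamonds), with list medians as black lines. Genes lie on both sides of 0 in the 5 lists that have more than 1 measured gene, and the medians run from -0.13 to 0.10.

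The GATA family and its cofactors had 9 of 18 genes measured, 3 above and 6 below 0, with a median of -0.02 and 0 past the limma threshold. GATA2 and GATA3, which act in trophectoderm, were at -0.24 ± 0.22 and -0.35 ± 0.21, beside 0.10 ± 0.18 for GATA6. GATA2 and GATA6 were above background in 8 of 8 channels. GATA3 was close to it, above the limit in 2 of 4 NEFA and 3 of 4 control pools, and was tested through its control pools alone. Whether these values differ from that of GATA6 was not tested. MED1, a Mediator subunit that GATA factors bind, was at -0.78 ± 0.23 and had the smallest p of the list. It was lower on 4 of 4 arrays, as 4.29% of probes were. Its unadjusted limma p was 0.0153, under 0.05 as for 1.53% of tested probes, and its adjusted p was 1.00 after rounding.

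Markers of other cells in the pools were present only in part. Of 18 listed trophectoderm genes 11 had a probe and 6 were measured, 3 with values above and 3 below 0. KRT19 exceeded the limit in 3 of 8 channels, HAND1 in 1 of 8, and DLX3, ETS2 and IFNG in 0 of 8. TFAP2C, the brightest, was above background in 8 of 8 channels and had a value of 0.22 ± 0.20, with -0.48 on array 2 and values above 0 on the other 3 arrays. ELF5 was above background in 0 of 4 NEFA and 3 of 4 control pools, so its level in NEFA could not be measured. The mean signal of the control pools was 1.18-fold the NEFA background level. That is a ratio of means with no error attached, and it does not set a smallest decrease. The limma value was -0.35 ± 0.14 (95% interval -0.70 to -0.002), which allows a decrease close to none. ELF5 was lower on 4 of 4 arrays, as 4.29% of probes were. Its unadjusted limma p was 0.0492, under 0.05 as for 1.53% of tested probes, and its adjusted p was 1.00 after rounding. Because it was kept for its control pools, neither its direction nor this p is independent of that selection. The summed normalised intensity of the 6 was 54024 to 65525 in NEFA pools and 48472 to 71565 in control pools, and the list median was -0.08. TFAP2C made up 75.0% to 83.2% of that sum, whose ranges overlapped between conditions, and the part of trophectoderm in the DAB2 values was not tested. Of 15 listed inner cell mass and epiblast genes 7 had a probe and only IL6ST and UTF1 were measured, at 0.16 ± 0.14 and -0.003 ± 0.14. Both were close to background and tested through their NEFA pools alone. IL6ST was above the limit in 3 of 4 NEFA and 1 of 4 control pools, and UTF1 in 3 of 4 and 2 of 4. SOX2 exceeded the limit in 2 of 8 channels, KLF4 in 0 of 8, and POU5F1 and NANOG had no probe under these symbols. The ratio of endoderm to epiblast signal could therefore not be followed. On the endoderm side, too, GATA6 was the only listed regulator that was tested.

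Of 14 listed oocyte genes 12 had a probe and 5 were measured. All 5 had values above 0, as 46.1% of the 4686 measured genes did, and 0 passed the limma threshold. The brightest, ZP2, had mean normalised log2 levels of 8.87 in NEFA and 8.85 in control and a value of 0.01 ± 0.14. GDF9 had the smallest p, at 0.31 ± 0.15. Cumulus genes had 4 of 16 measured with a median of -0.12, among them AMH at 0.07 ± 0.44 and FST at -0.46 ± 0.23. Other cumulus genes with a probe were not tested. Of these, PTX3 exceeded the limit in 4 of 8 channels, HAS2 in 1 of 8, and INHBA and GREM1 in 0 of 8. Sperm genes had 3 of 13 measured, with ODF2 at -0.26 ± 0.17 and TEKT2 at 0.24 ± 0.30. ODF2 was above background in 1 of 4 NEFA and 3 of 4 control pools, so it was tested through its control pools alone. Other sperm genes with a probe were not tested. AKAP4 exceeded the limit in 3 of 8 channels and SPATA18 in at most 2 of 8. SPACA3 exceeded it in 1 of 8, and TNP1 and ODF1 in 0 of 8. Whether the pools held RNA of cumulus cells or sperm was not tested.

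**Figure D4:**
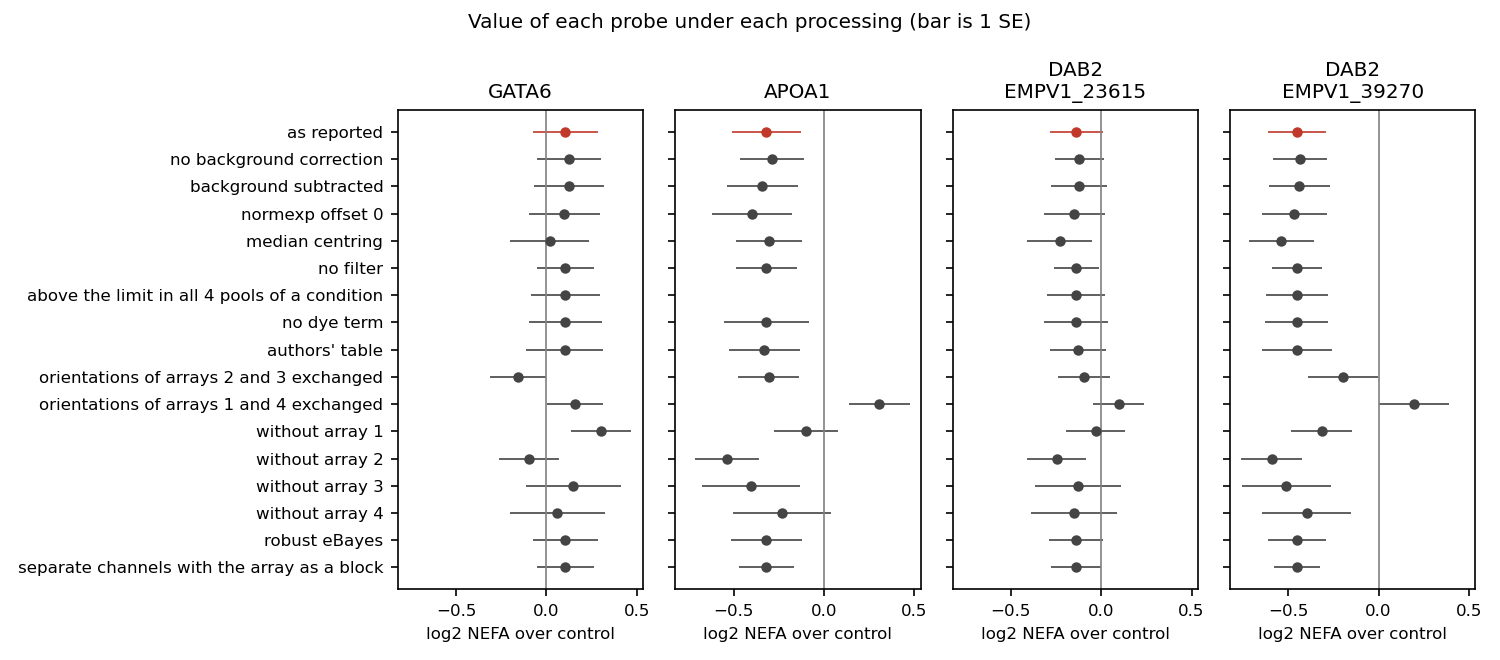
Value of log2 NEFA over control with a bar of 1 SE for the 4 tested probes under the reported processing (red) and 16 alternatives (grey; APOA1 was not kept under the stricter filter). APOA1 and DAB2 probes EMPV1_23615 and EMPV1_39270 lie above 0 only where the dyes of arrays 1 and 4 are exchanged, and GATA6 lies below 0 when array 2 is left out or the dyes of arrays 2 and 3 are exchanged.

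The authors' deposited table of processed ratios gave nearly the same picture array by array. In the authors' deposited table GATA6 read -0.63, 0.45, 0.31 and 0.27 on arrays 1 to 4 as NEFA over control, after turning its sign for the dye orientation. In the authors' deposited table APOA1 read -0.28, 0.64, -0.83 and -0.86. DAB2 probe EMPV1_39270 read -0.59, 0.22, -0.53 and -0.91 in the authors' deposited table. The signs were those found from the scanner values on 4 of 4 arrays for each of these probes. Fitted in the same way, that table gave 0.10 for GATA6, -0.33 for APOA1, -0.13 for DAB2 probe EMPV1_23615 and -0.45 for EMPV1_39270.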

How the data were processed

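Amplified RNA of blastocyst pools was labelled with Cy3 or Cy5 and hybridised in pairs, per the labels' protocols. The deposited scanner files hold median spot and background intensities, not normalised, per the file headers. The authors' deposited table holds log2 ratios made with limma, per the submitters' processing notes, which give no steps. Its columns correlated at r = 0.966 to 0.995 with background-subtracted scanner ratios of Cy5 over Cy3, their medians were -0.020 to -0.023, and how they were centred is unknown. The scanner is not named in these sources.

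Intensities were corrected with normexp (offset 50) and loess-normalised per array, giving the 1426 control spots no weight. Flagged spots, 35 to 75 probes an array, were left out, and no member was flagged. Ratios were fitted with lmFit and eBayes in limma 3.58.1 (R 4.3.3), with a dye intercept and a NEFA term, on 2 residual and 3.68 prior degrees of freedom, two-sided, with Benjamini-Hochberg adjustment over 17145 probes. The fit was tested on simulated data. Levels by condition were taken after Aquantile scaling. The offset pulls ratios of dim probes such as APOA1 toward 0. No genome coordinates are given because no build is named for the array, and no probe sequence was used. A gene in a list was read by its brightest tested probe with no flagged spot. Named genes were all member probes, the 3 genes of smallest p in each pathway list, the brightest and the smallest p gene of each list of other cells, and the 3 nearest patterns per member. Other list genes were named for their role after their values were seen. The members and lists were chosen with earlier results of these data known. Neither slide nor scan date entered the fit.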

Additional observations from a re-analysis of the deposited data

Results flagged for a closer look

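Of 54 sets of 4 array values examined, 3 had 1 array far from the other 3 by Dixon's ratio at its 95% critical value, which is 5.56% of the sets where chance flags about 5%. For DAB2 probe EMPV1_39270 the NEFA level on array 2 was 13.64 on the log2 scale against 13.20 to 13.27 on the others. The ratio of ITGB1 on array 3 was 0.047 against 0.39 to 0.45. The ratio of TFAP2C on array 2 was -0.48 against 0.36 to 0.51.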

How the results depend on the processing

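None of the 4 tested member probes passed an adjusted p of 0.05 in limma under any of the alternatives, and the smallest adjusted p among these was 0.389, for APOA1 with either exchange of orientations. Direction changed as follows: GATA6 to -0.16 with the orientations of arrays 2 and 3 exchanged, and with those of arrays 1 and 4 exchanged APOA1 to 0.31, DAB2 probe EMPV1_23615 to 0.10 and EMPV1_39270 to 0.20. These exchanges mirror each other, so the data do not fix which direction belongs to an exchanged fit. With 1 array left out GATA6 ran from -0.095 (without array 2) to 0.30, APOA1 from -0.54 to -0.10, EMPV1_23615 from -0.25 to -0.03 and EMPV1_39270 from -0.59 to -0.31. GATA6 was at 0.02 with median centring. The count of probes past the adjusted threshold was 0, with 2 from the authors' deposited table and 1193 with either exchange. The count at an unadjusted p under 0.05 was 263, with 864 without a filter, 172 with the stricter filter, 634 with separate channels, 3197 with either exchange and 100 to 807 with 1 array left out. List medians moved to 0.16 for FGF signalling with arrays 1 and 4 exchanged, and for the DAB2 partners to -0.16 with median centring, to 0.056 with arrays 1 and 4 exchanged, and to between -0.14 and 0.023 with 1 array left out. Other list medians crossed 0 as well, among them these. With arrays 2 and 3 exchanged the lipoprotein median was -0.082 and the basement membrane median -0.073. Without array 2 the lipoprotein median was -0.091, and without array 3 the basement membrane median was -0.010. Without a filter the FGF median was 0.050 and the basement membrane median -0.024. The GATA family median was 0.021 with arrays 1 and 4 exchanged and, on the same side of 0 as reported, -0.106 without array 4. Of 33 other named genes, 10 changed sign with arrays 2 and 3 exchanged, 23 with arrays 1 and 4 exchanged and 0 to 5 with 1 array left out. AMH and TEKT2 passed with either exchange. Counts of channels above the limit stayed within 1 channel at mean plus 3 SD and on raw intensities. APOA1 has no value under the stricter filter. No further paired analysis was added, because the fitted ratio of each array already pairs 1 NEFA with 1 control pool. The causes of these shifts were not tested.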

Other observations

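APOA2, a partner of APOA1 in high density lipoprotein, was picked out after its values were seen. It was above background in 8 of 8 channels, unlike APOA1, and its ratio on arrays 1 to 4 was 0.00, 0.66, -1.34 and -0.52, a limma value of -0.30 ± 0.20 with an adjusted p of 1.00 after rounding. APOC3, picked out in the same way, was at -0.25 ± 0.15 and lower on 4 of 4 arrays, as 4.29% of probes were. Other measured genes of the list lay above 0, among them APOH at 0.11 ± 0.14, APOO at 0.14 ± 0.15 and CLU at 0.16 ± 0.22. The list as a whole held 6 genes above and 6 below 0. APOE was at 0.14 ± 0.14, above background in 3 of 4 NEFA and 1 of 4 control pools, with 1 of its 2 tested probes on the other side of 0.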
